A study of Mus musculus with 6 samples.

Results

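The genes described here are 34 genes of fatty acid and cholesterol synthesis, taken by gene symbol from a list of lipid synthesis genes, out of 19019 genes measured. They comprise 15 genes of fatty acid synthesis, 5 genes that control the SREBP transcription factors and 14 genes of sterol synthesis, and they were represented by 67 array spots. The group was chosen by the mean log ratio of Mid1ip1, which was among the largest falls in these data, so the values of Mid1ip1 are given as a description with no test. The remaining members were listed by pathway. The cells were N18, a mouse neuroblastoma line, transfected with an siRNA against Nrsf (official symbol Rest, a repressor that binds DNA through zinc fingers and is known for silencing neuronal genes in other cells) or with a scrambled siRNA. Each of 6 two-colour Agilent arrays carried RNA of both kinds of cells, with the siRNA sample in Cy5 on arrays 1 to 3 and in Cy3 on arrays 4 to 6. No label tells whether each array had a transfection of its own, so a p-value here measures only how the arrays spread, which may be technical. The cells are 1 line, and the transfection time is not given in the sources used here.

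Each value is a log2 ratio, siRNA-treated over scrambled cells, averaged over the spots of a gene on each array, and errors are standard deviations (SD) over the 6 arrays unless another n is given. The log base was inferred from the values, and a natural log would make each fold larger. The direction was inferred from the sample names and the dyes and is likely rather than settled. The names put the siRNA sample first where it was in Cy5 and last where it was in Cy3. Their order alone would thus give opposite directions for the dye orientations. The ratio was read as siRNA over scrambled on all 6 arrays, and Rest, the silenced gene, then lay below 0 on each. If the ratio ran the other way, all directions below would be swapped. Ratios give no expression level, so the identity of the cells could not be checked from marker levels, and fewer cells of a type cannot be told apart from less RNA per cell. None of 8 glial, 10 mesenchymal and 7 immune marker genes passed the test in either direction, with list medians of 0.02, 0.01 and 0.01. A gene was called lower or higher at an adjusted p under 0.05 (limma with a term for the dye orientation, Benjamini-Hochberg over all 19019 genes). By this rule 9.11% of all genes were lower and 5.88% were higher. The silenced gene, Rest, had a mean log2 ratio of -0.35 ± 0.13 and lay below 0 on 6 of 6 arrays (adjusted p = 0.00353), from 3 spots at -0.05, -0.44 and -0.55, of which the first alone did not pass (adjusted p = 0.742). Array 1 stood apart: it correlated with the others across genes at 0.29 to 0.37, against 0.54 to 0.82 among arrays 2 to 6, and its 5th percentile of genes was -0.53 against -0.26 to -0.21. Without array 1, 12.2% of all genes were lower and 13.7% were higher.

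Cholesterol is built from acetyl-CoA through mevalonate, isoprenoid and squalene intermediates, after which squalene is cyclised and the sterol ring is trimmed. Fatty acids are built from the same precursor by acetyl-CoA carboxylase and fatty acid synthase, then elongated and desaturated. Both branches are known targets of the SREBP factors, which are held in the endoplasmic reticulum with Scap and Insig proteins and are released by proteolysis when sterols are scarce. Srebf2 is known chiefly for the sterol branch and Srebf1 for the fatty acid branch. In the nervous system, cholesterol is made locally, since lipoproteins hardly cross the blood-brain barrier.

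Genes of sterol synthesis fell in siRNA-treated cells, whereas genes of fatty acid synthesis were called in both directions. Of the 14 sterol genes, 10 were lower and 0 were higher (71.4% lower, against 9.11% of all genes), and the count without array 1 was 11 lower and 0 higher. Leaving out each array in turn gave 6 to 11 lower sterol genes, with 6 without array 5 and 7 without array 6. Of the 14 fatty acid genes other than Mid1ip1, 1 was lower and 3 were higher, and without array 1 the counts were 2 lower and 5 higher. Of the 5 SREBP control genes, 2 were lower and 0 were higher, and without array 1 the counts were 3 lower and 2 higher. Over all genes 5.88% were higher, and without array 1 the shares were 12.2% lower and 13.7% higher. The median of the gene means was -0.36 for the sterol genes and -0.18 for the SREBP control genes, against 0.0025 for all genes. For the fatty acid genes it was -0.0048, with Mid1ip1 included. All 6 arrays were below 0 for 9 of the 14 sterol genes, 1 of the 5 control genes and 1 of the 14 fatty acid genes other than Mid1ip1, as they were for 11.6% of all genes. The difference between the lists was not tested, since members of a pathway are not replicates.

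**Figure D1:**
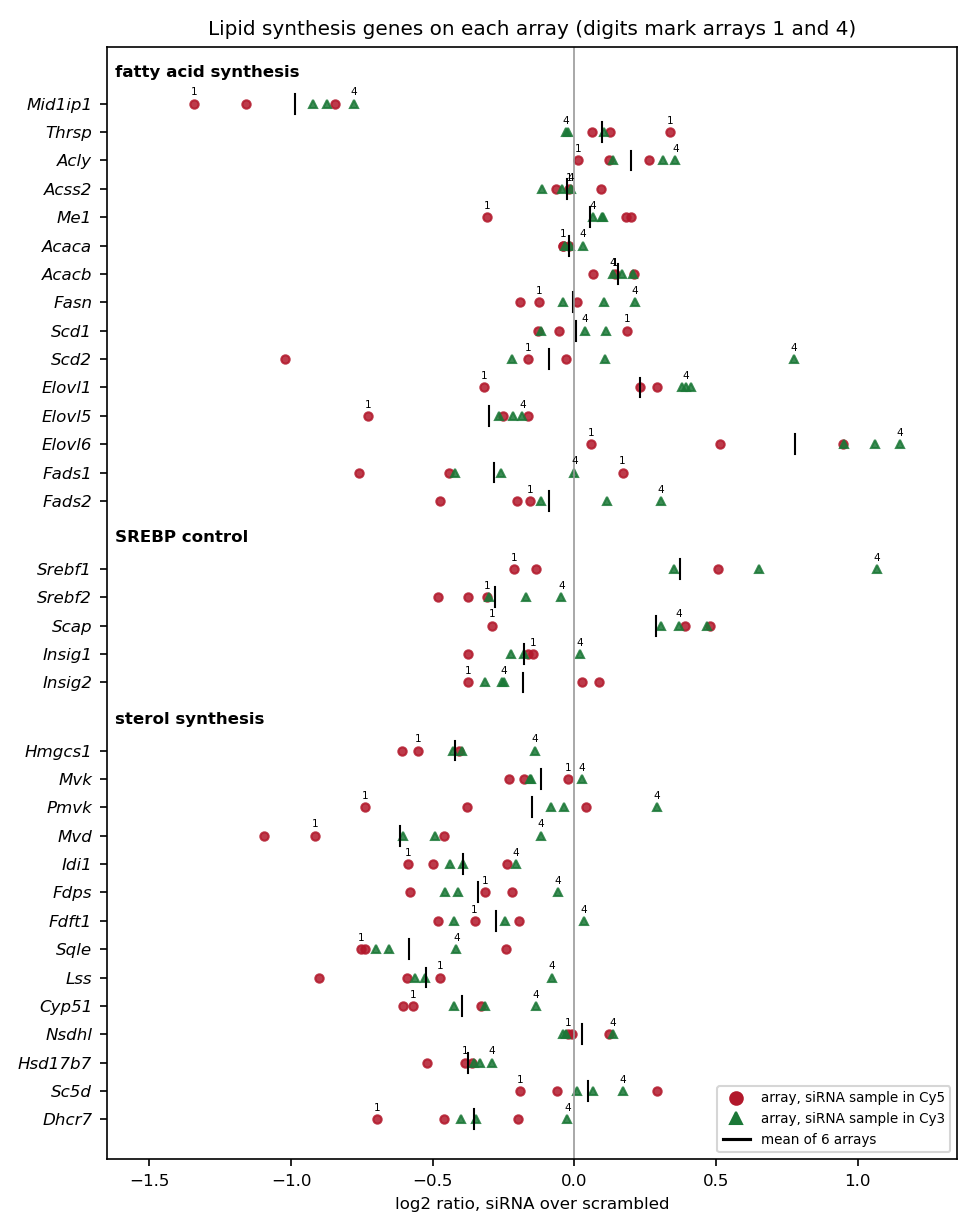
Log2 ratio of siRNA over scrambled cells (horizontal axis) for the 34 genes (vertical axis, by group), with a point for each of the 6 arrays (circles for the siRNA sample in Cy5, triangles in Cy3), a bar at the mean and small digits over arrays 1 and 4. The sterol genes lie mostly left of 0 with array 4 at the right end for 12 of 14, while the fatty acid genes hold both signs.

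The promoters of 5 sterol genes that fell are shown as examples, out of 7 such genes with a window. Mvd and Dhcr7, which are not shown, also held a CCAAT box, Dhcr7 not in every window. Whether the box has a part in the falls was not tested. The windows are those of RefSeq on the mouse build GRCm38.p6, from 250 bases before to 50 bases after the annotated start, written 5′ to 3′ on the strand of the gene. Capitals mark CCAAT or its reverse complement ATTGG and, in Hmgcs1, the sterol regulatory element.
Hmgcs1, chr13:119690101-119690400, plus strand: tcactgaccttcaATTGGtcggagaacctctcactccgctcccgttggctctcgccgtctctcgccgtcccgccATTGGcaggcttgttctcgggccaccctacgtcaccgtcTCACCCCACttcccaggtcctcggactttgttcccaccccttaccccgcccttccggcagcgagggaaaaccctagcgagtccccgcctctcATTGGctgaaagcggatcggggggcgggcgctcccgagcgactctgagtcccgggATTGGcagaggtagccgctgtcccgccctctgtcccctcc
Idi1, chr13:8885356-8885655, plus strand: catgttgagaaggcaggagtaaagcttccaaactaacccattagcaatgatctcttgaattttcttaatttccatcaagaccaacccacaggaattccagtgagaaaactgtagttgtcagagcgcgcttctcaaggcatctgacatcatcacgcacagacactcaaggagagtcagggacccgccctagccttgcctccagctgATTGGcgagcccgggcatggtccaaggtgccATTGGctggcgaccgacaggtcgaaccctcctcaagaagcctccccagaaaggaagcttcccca
Lss, chr10:76531355-76531654, plus strand: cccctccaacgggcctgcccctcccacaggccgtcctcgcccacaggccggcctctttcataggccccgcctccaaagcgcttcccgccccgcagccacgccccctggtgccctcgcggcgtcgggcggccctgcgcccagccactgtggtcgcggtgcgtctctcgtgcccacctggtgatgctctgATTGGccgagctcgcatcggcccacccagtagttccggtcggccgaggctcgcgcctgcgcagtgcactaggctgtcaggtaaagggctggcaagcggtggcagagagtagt
Cyp51, chr5:4104648-4104947, minus strand: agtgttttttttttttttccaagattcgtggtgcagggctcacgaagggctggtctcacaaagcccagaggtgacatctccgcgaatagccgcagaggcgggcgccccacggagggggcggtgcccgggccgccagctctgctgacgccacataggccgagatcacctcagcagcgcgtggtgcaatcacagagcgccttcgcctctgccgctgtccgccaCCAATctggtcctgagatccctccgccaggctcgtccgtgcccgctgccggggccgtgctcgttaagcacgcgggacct
Hsd17b7, chr1:169969156-169969455, minus strand: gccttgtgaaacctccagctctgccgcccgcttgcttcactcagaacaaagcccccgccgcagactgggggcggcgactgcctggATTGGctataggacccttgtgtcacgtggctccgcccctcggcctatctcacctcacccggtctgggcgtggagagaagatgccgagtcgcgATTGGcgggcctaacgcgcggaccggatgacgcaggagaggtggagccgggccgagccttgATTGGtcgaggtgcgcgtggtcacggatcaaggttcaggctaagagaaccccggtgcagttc
Hmgcs1 held 4 such boxes, Hsd17b7 held 3, Idi1 held 2, and Lss and Cyp51 held 1 each.

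Windows were available for 28 of the 34 genes. Scd1, Scd2, Fads1, Fdps, Fdft1 and Sqle had none. The search covered both strands, and a gene was counted if any of its windows held the letters. CCAAT was present for 11 of 11 sterol genes, 8 of 12 fatty acid genes (66.7%) and 4 of 5 SREBP control genes. By the same count it was present for 42.3% of all tested genes with a window. Counted by window instead, it was in 37.4% of all 32851 windows. Among the sterol genes, Pmvk and Dhcr7 were counted although each also has a window without the box. The 11 sterol genes with the box include Mvk, Pmvk, Nsdhl and Sc5d, which were not called lower on the arrays, so the box was not limited to genes that fell. The sterol regulatory element, searched as TCACNCCAC, was found in Hmgcs1 alone among the 28 genes, against 1.4% of the tested genes with a window. The E-box CACGTG was found in Elovl5, Scap, Insig1, Hsd17b7, Sc5d and Dhcr7 (21.4% of the 28 genes), against 9.7% of the tested genes with a window. Of the REST element, the left part TTCAGCACC was in 0 of the 28 genes, against 0.5% of the tested genes with a window, and the right part GGACAGCG was in Hmgcs1 and Cyp51 (7.1%), against 2.0%. These matches describe letters in the windows and were not linked to binding.

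The mevalonate and isoprenoid steps fell for 4 of 6 genes, with a median of -0.37. Hmgcs1, the synthase that commits acetyl units to mevalonate, ranged over the arrays from -0.61 to -0.14 with a median of -0.42. Its mean was -0.42 ± 0.16, 1.34-fold lower (adjusted p = 0.00284, limma), and no array reached 0. Mvd, the decarboxylase that makes isopentenyl diphosphate, ranged from -1.09 to -0.12 with a median of -0.55. It had the most negative mean of the sterol genes, -0.61 ± 0.35, 1.53-fold lower (adjusted p = 0.00855), with array 3 lowest and array 4 highest. Idi1, the isomerase that supplies dimethylallyl diphosphate, ranged from -0.59 to -0.21 with a median of -0.42. Its mean was -0.39 ± 0.15 (adjusted p = 0.00526), and all arrays were again below 0. Fdps, farnesyl diphosphate synthase, ranged from -0.58 to -0.06 with a median of -0.36. It was 1.27-fold lower at -0.34 ± 0.18 (adjusted p = 0.0190). The 2 kinases of the mevalonate route did not pass the test: Mvk had a mean of -0.12 ± 0.10 (adjusted p = 0.0960). Pmvk had a mean of -0.15 ± 0.36, and its arrays spread from -0.74 to 0.29.

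The squalene and sterol steps fell for 6 of 8 genes, with a median of -0.36. Sqle, the epoxidase that is a rate-controlling step after squalene, ranged from -0.75 to -0.24 with a median of -0.68. Its mean was -0.58 ± 0.21 (adjusted p = 0.00491). Lss, which cyclises squalene epoxide to lanosterol, ranged from -0.90 to -0.08 with a median of -0.55. It was 1.44-fold lower at -0.52 ± 0.26 (adjusted p = 0.00844), and all 6 arrays were below 0 for both genes. Cyp51, the lanosterol demethylase, ranged from -0.60 to -0.14 with a median of -0.38, and its mean was -0.40 ± 0.17 (adjusted p = 0.00452), although the first of its 3 spots alone gave -0.25 (adjusted p = 0.0547). Hsd17b7, a sterol ketoreductase, had the tightest values of the fallen sterol genes, from -0.52 to -0.29 with a median of -0.36. Its mean was -0.37 ± 0.08, 1.30-fold lower (adjusted p = 0.000735). Dhcr7, the reductase of the last step to cholesterol, ranged from -0.70 to -0.02 with a median of -0.37, for a mean of -0.35 ± 0.23 (adjusted p = 0.0239). Fdft1, squalene synthase, which joins farnesyl units at the entry to the branch, ranged from -0.48 to 0.03 with a median of -0.30. Its mean was -0.28 ± 0.19 (adjusted p = 0.0319), and array 4 alone lay above 0. Nsdhl and Sc5d, a sterol decarboxylating dehydrogenase and the lathosterol desaturase, had means of 0.03 ± 0.08 and 0.05 ± 0.17 and did not pass. Fewer calls held when 1 array was left out: 6 sterol genes were lower without array 5, 7 without array 6 and 8 without array 3. The calls of Fdft1, Dhcr7, Fdps and Mvd were lost without array 5, those of Fdft1, Dhcr7 and Fdps without array 6, those of Fdft1 and Dhcr7 without array 3, and that of Fdft1 without array 2.

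**Figure D2:**
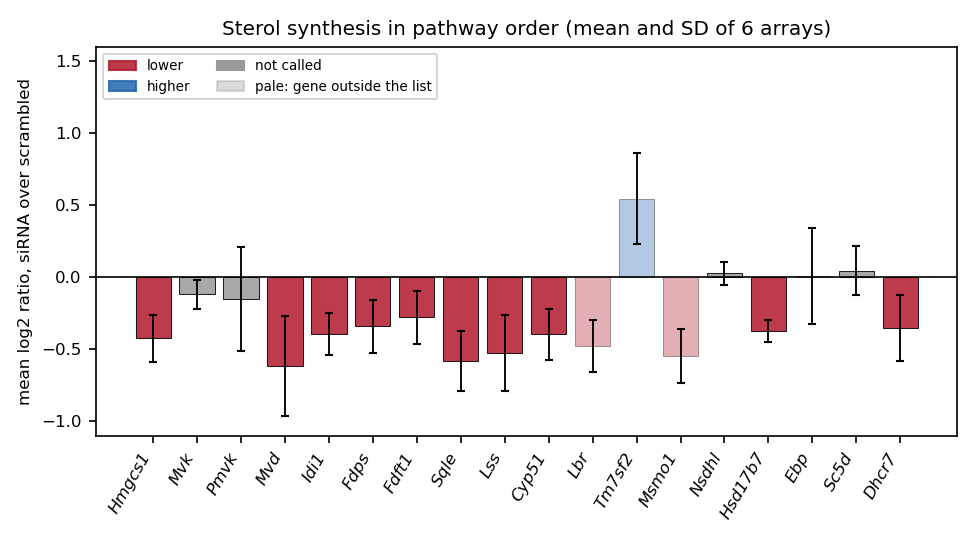
Mean log2 ratio of siRNA over scrambled cells with SD over 6 arrays (vertical axis) for the 14 sterol genes in the order of the pathway (horizontal axis), with Lbr, Tm7sf2, Msmo1 and Ebp, which are not among the 14, in pale bars. The 10 genes called lower have means from -0.61 to -0.28, Nsdhl and Sc5d lie around 0, and Tm7sf2 alone is called higher.

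The sterol genes shared a high ratio on array 4. The median over the 14 genes was -0.51, -0.23, -0.51, -0.07, -0.34 and -0.41 on arrays 1 to 6. All 14 genes were below 0 on arrays 1 and 3, and 9 were below 0 on array 4. Of all 19019 genes, 10194, 9093 and 9633 were below 0 on arrays 1, 3 and 4. For 12 of the 14 genes (85.7%) array 4 had the highest ratio, against 14.0% of all genes. Array 3 had the lowest ratio for 7 of the 14 and array 1 for 5. Over all genes array 3 was lowest for 14.4%. Array 1 was lowest for 6609 of the 19019 genes, a share close to that among the sterol genes. The order was also seen outside the sterol genes. Array 4 was highest for 7 of 15 fatty acid genes (46.7%), Mid1ip1 among the 7, and for 3 of 5 SREBP control genes (60.0%). Array 3 was lowest for 6 of 15 and 2 of 5. Arrays 4, 5 and 6 have the siRNA sample in the same dye. The dye term passed for 0 of the 19019 genes (0%), with an unadjusted p under 0.05 for 1756 genes, of which 0 were sterol genes, 2 were fatty acid genes and 2 were SREBP control genes. Genes of one array share its RNA and hybridisation, and the part of the RNA sample, the hybridisation or the dyes in this order was not tested.

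Of the genes that encode, release and retain the SREBP factors, Srebf2 and Insig1 were lower and 3 did not pass with all arrays. Srebf2, the factor known for sterol genes, ranged from -0.48 to -0.05 with a median of -0.31, and all 6 arrays were below 0. Its mean was -0.28 ± 0.15, 1.22-fold lower (adjusted p = 0.00604). Of its 4 spots, 2 lay at 0.05 and -0.01, and with the first spot alone the direction turned (0.0473, adjusted p = 0.769). Insig1, an endoplasmic reticulum retention factor and itself a known SREBP target, ranged from -0.38 to 0.02 with a median of -0.17. It was 1.13-fold lower at -0.18 ± 0.13 (adjusted p = 0.0435), with array 4 alone above 0, and the call was lost without array 2, 3, 5 or 6 and with the first spot alone (adjusted p = 0.221). Insig2, its relative, had a mean of -0.18 ± 0.19 (adjusted p = 0.106). Srebf1, the factor known for fatty acid genes, had the widest spread of the 5 genes. Its ratios on arrays 1 to 6 were -0.21, 0.51, -0.14, 1.07, 0.65 and 0.35, for a mean of 0.37 ± 0.49 (adjusted p = 0.101). The mean was 0.05 ± 0.40 (n = 3) on the Cy5 arrays and 0.69 ± 0.36 (n = 3) on the Cy3 arrays, and the orientations overlapped. Scap, the escort protein that carries SREBP to the Golgi, had a ratio of -0.29 on array 1, with arrays 2 to 6 between 0.31 and 0.48, for a mean of 0.29 ± 0.29 (adjusted p = 0.115). Without array 1 the adjusted p was 3.29e-05 for Scap, 0.0232 for Srebf1 and 0.00960 for Insig2, the first 2 being higher and Insig2 lower. None of these genes passed with any other single array left out.

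Mid1ip1, a relative of Thrsp known in mouse for promoting the polymerisation and activity of acetyl-CoA carboxylase, had ratios of -1.34, -0.84, -1.16, -0.78, -0.87 and -0.92 on arrays 1 to 6. All 6 arrays were far below 0, and the mean was -0.99 ± 0.22, or 1.98-fold lower. This was the 12th lowest mean of the 19019 genes, between -0.992 for Pphln1 and -0.987 for Trappc2l. The ratio came from 1 spot, and it was -1.12 ± 0.25 (n = 3) on the Cy5 arrays and -0.86 ± 0.07 (n = 3) on the Cy3 arrays. Thrsp, the relative of Mid1ip1 that is also known as Spot14, had ratios of 0.34, 0.12, 0.06, -0.03, 0.10 and -0.02 on the same arrays. Its arrays lay on both sides of 0, with a mean of 0.10 ± 0.14 (adjusted p = 0.206).

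The enzymes that Mid1ip1 is known to act on, and the synthase after them, showed small ratios. Acaca, acetyl-CoA carboxylase alpha, had a mean of -0.02 ± 0.03 (adjusted p = 0.641), with 5 spots from -0.05 to 0.01. Acacb, the mitochondrial carboxylase isoform, ranged from 0.07 to 0.21 with a median of 0.16. It was 1.11-fold higher at 0.15 ± 0.05 (adjusted p = 0.0102), but neither of its 2 spots passed the test over spots, and the call was lost without array 5 or 6. Fasn, fatty acid synthase, had a mean of -0.0048 ± 0.15 (adjusted p = 0.970). Acly, which makes cytosolic acetyl-CoA from citrate, ranged from 0.01 to 0.36 with a median of 0.20. It was 1.15-fold higher at 0.20 ± 0.13 (adjusted p = 0.0248), and the call was lost without array 2, 3, 4 or 5. Of its 2 spots, 1 lay at 0.04, and with that spot alone the call was lost (adjusted p = 0.652). Acss2, which makes acetyl-CoA from acetate, had a mean of -0.03 ± 0.07. Me1, malic enzyme, which supplies NADPH, had a mean of 0.06 ± 0.19, with -0.31 on array 1. It passed as higher without that array (adjusted p = 0.00161), but not with any other single array left out.

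Among the elongases, 1 gene rose and 1 fell. Elovl6, which elongates saturated and monounsaturated chains, had ratios of 0.06, 0.95, 0.51, 1.15, 1.06 and 0.95 on arrays 1 to 6. All arrays were above 0, with array 1 close to it, and the mean was 0.78 ± 0.42, 1.72-fold higher (adjusted p = 0.00525). It was measured by 1 spot and had a mean of 0.51 ± 0.44 (n = 3) on the Cy5 arrays and of 1.05 ± 0.10 (n = 3) on the Cy3 arrays. Elovl5, an elongase of polyunsaturated chains, ranged from -0.73 to -0.16 with a median of -0.24. Its mean was -0.30 ± 0.21, 1.23-fold lower (adjusted p = 0.0353), with array 1 far below the rest, and the call was lost without array 3, 4, 5 or 6 and with the first spot alone (adjusted p = 0.0675). Elovl1, an elongase of very long chains, had -0.32 on array 1, with arrays 2 to 6 from 0.23 to 0.41, with a mean of 0.23 ± 0.28 (adjusted p = 0.110). Without array 1 its adjusted p was 2.13e-05, and it did not pass with any other single array left out.

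None of the 4 desaturases passed the test. Scd1 and Scd2 introduce the first double bond into saturated chains, and Fads1 and Fads2 act on polyunsaturated chains. Scd1 had a mean of 0.0050 ± 0.13. Scd2 had ratios of -0.16, -0.03, -1.02, 0.78, 0.11 and -0.22 on arrays 1 to 6, the widest spread of the 34 genes, for a mean of -0.09 ± 0.58. Its lowest ratio was on array 3 and its highest on array 4. Fads1 had a mean of -0.29 ± 0.33 (adjusted p = 0.191) and passed as lower without array 1 (adjusted p = 0.00187). Fads2 had a mean of -0.09 ± 0.27. Across the 33 genes other than Mid1ip1, 13 were lower and 3 were higher with all arrays, and 16 were lower and 7 were higher without array 1. Over all genes the shares were 9.11% lower and 5.88% higher with all arrays, and 12.2% and 13.7% without array 1.

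**Figure D3:**
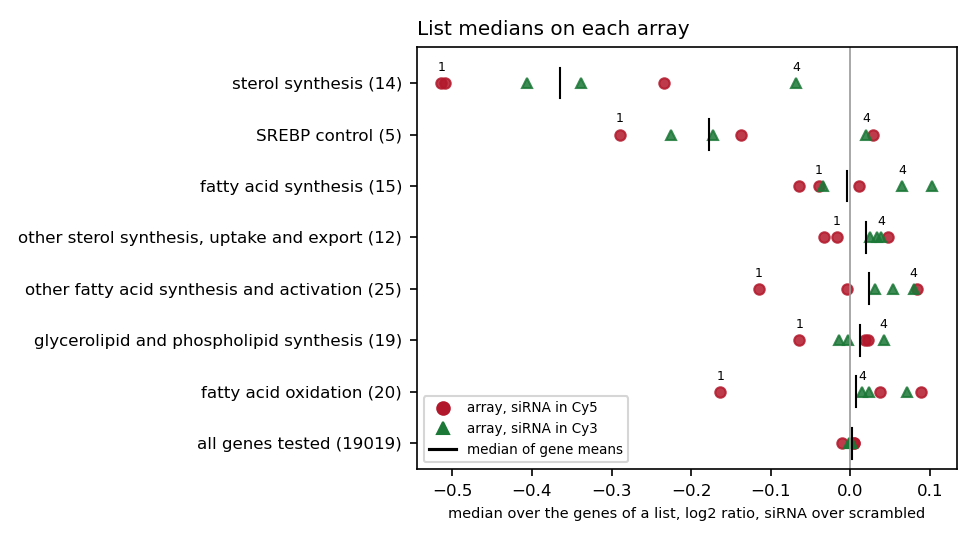
Median log2 ratio over the genes of a list (horizontal axis) for 8 lists, with the number of genes in brackets (vertical axis), a point for each of the 6 arrays (circles for the siRNA sample in Cy5, triangles in Cy3), small digits over arrays 1 and 4 and a bar at the median of the gene means. The sterol median runs from -0.51 to -0.07, and the fatty acid median, which includes Mid1ip1, stays between -0.06 and 0.10.

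Spots of a gene often differed in size. Over all 43530 spots, 6.85% were lower and 4.21% were higher, and of the 66 spots of the 33 genes other than Mid1ip1 19 were lower and 3 were higher. The 30 sterol spots held 15 lower and 1 higher, the 10 SREBP control spots 3 lower and 0 higher, and the 26 fatty acid spots without Mid1ip1 1 lower and 2 higher. Both spots of Idi1, both spots of Hsd17b7 and all 3 spots of Lss were lower. Hmgcs1 had 1 spot at -0.76, which passed, and 1 at -0.09, which did not. Fdft1 had 1 spot at -0.56, which passed, and 1 at 0.01. Srebf2 had spots at 0.05, -0.01, -0.86 and -0.30, of which the last 2 passed as lower, so its gene mean depended on the spots taken. Sc5d had spots of opposite sign, 0.28, which passed as higher, and -0.19, which did not pass. The 5 genes Mid1ip1, Elovl6, Mvd, Sqle and Srebf1 were among the 12 genes with 1 spot each and had no second spot to compare. A ratio does not show how bright a spot was over its background, and the part of dim spots in these differences was not tested.

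**Figure D4:**
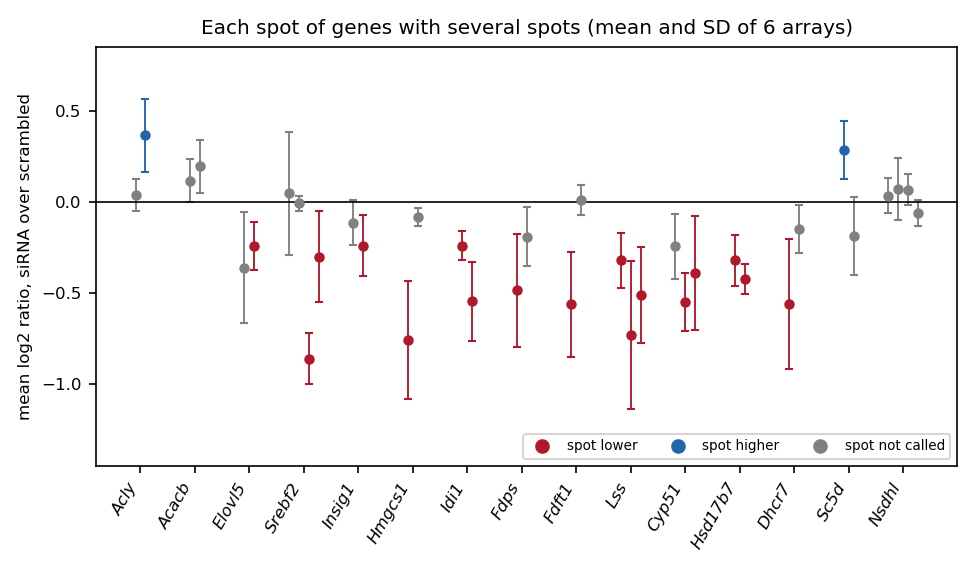
Mean log2 ratio of siRNA over scrambled cells with SD over 6 arrays (vertical axis) for each spot of 15 genes with several spots (horizontal axis), coloured by the test over all spots. All spots of Idi1, Lss and Hsd17b7 are lower, whereas Hmgcs1 and Fdft1 have 1 lower spot and 1 near 0.

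Other genes of sterol metabolism also held falls. Of 12 measured genes of sterol synthesis, uptake and export beyond the 14, 5 were lower (41.7%) and 2 were higher, with a median of 0.02. Over all genes 9.11% were lower and 5.88% were higher. Msmo1, the C4 methylsterol oxidase, ranged from -0.77 to -0.25 with a median of -0.52. It was 1.46-fold lower at -0.55 ± 0.19 (adjusted p = 0.00187), with array 3 lowest and array 4 highest, and its 2 spots were at -0.95 and -0.14, of which the latter alone did not pass (adjusted p = 0.0593). The 2 sterol C14 reductases moved in opposite directions. Lbr, which is also a lamin B receptor of the nuclear envelope, was lower at -0.48 ± 0.18 (adjusted p = 0.00331). Tm7sf2 was 1.46-fold higher at 0.55 ± 0.32 (adjusted p = 0.0136), although not without array 4, 5 or 6. Mylip, a ubiquitin ligase known for acting on lipoprotein receptors, was higher at 0.34 ± 0.17 (adjusted p = 0.0114), although not without array 5 or 6. Ebp, the sterol isomerase of the pathway, had a mean of 0.01 ± 0.34, with -0.65 on array 1, and did not pass. The remaining 3 lower genes, named like Ebp after their values were seen, were Stard4, a cholesterol transporter, at -0.31 ± 0.09, Npc2, which exports cholesterol from lysosomes, at -0.24 ± 0.19, and Ggps1, geranylgeranyl diphosphate synthase, at -0.14 ± 0.08.

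Of 25 measured genes of other fatty acid synthesis and activation steps, 1 was lower (4.0%) and 2 were higher, with a median of 0.02. Over all genes 9.11% were lower and 5.88% were higher. Without array 1 the counts were 2 lower and 8 higher, against 12.2% and 13.7% of all genes. Acsl4, an acyl-CoA synthetase that prefers arachidonate, was 1.63-fold lower at -0.70 ± 0.18 (adjusted p = 0.000559), with both spots lower and all arrays between -0.93 and -0.42. Acsl5, another acyl-CoA synthetase, was higher at 0.34 ± 0.09 (adjusted p = 0.00233). Fads3, of the desaturase family, was higher at 0.25 ± 0.13 (adjusted p = 0.0155), although not without array 3, 5 or 6 or with its first spot alone. Of 12 genes of SREBP cleavage, Insig turnover and the kinase AMPK, 2 were lower (16.7%) and 0 were higher. The 2 were Ubxn8 at -0.15 ± 0.06 and Rnf139, a ubiquitin ligase of the endoplasmic reticulum, at -0.09 ± 0.06. Of 19 glycerolipid and phospholipid synthesis genes, 3 were lower (15.8%) and 1 was higher. Pisd, which makes phosphatidylethanolamine in mitochondria, was lower at -0.33 ± 0.23 and Pcyt2, of the ethanolamine route, at -0.26 ± 0.20. Chkb, choline kinase beta, was lower at -0.16 ± 0.10, and Agpat2, an acyltransferase, was higher at 0.15 ± 0.05. These 4 calls and those of Ubxn8 and Rnf139 were each lost without array 5, without array 6 and without at least 1 array more.

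Of 20 measured genes of fatty acid oxidation, the pathway that breaks fatty acids down in mitochondria, 2 were lower and 1 was higher, with a median of 0.0069. The shares of all genes were 9.11% lower and 5.88% higher, close to those in this list, so the list as a whole did not stand out. Hadhb, the beta subunit of the mitochondrial trifunctional protein, ranged from 0.42 on array 1 to 1.18 with a median of 1.09. It was 1.99-fold higher at 0.99 ± 0.28 (adjusted p = 0.00191), with every array above 0, and was measured by 1 spot. Hadha, the other subunit of that protein, named after its values were seen, had a mean of -0.01 ± 0.04 from 3 spots and did not pass. Acadl and Acadm, acyl-CoA dehydrogenases of long and medium chains, were lower at -0.30 ± 0.08 (adjusted p = 0.00175) and -0.38 ± 0.25 (adjusted p = 0.0168), the latter not without array 4, 5 or 6.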

How the data were processed

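Per the labels' protocols, Trizol was used to extract total RNA of the N18 cells, and a linear amplification kit of Agilent labelled 1 µg of it. The deposited values are normalized log2 ratios of the 2 channels (base inferred) for 44290 spots. How the authors normalized them, corrected the background and scanned is not stated in these sources. The design text of the series mentions overexpression and human genes as well, and the sample labels were followed. The base was inferred from 25 spots without a gene name that turned with the dyes by more than 3. Their median deviation per orientation was 3.18, a ratio of 9.1 on a log2 scale and 1523 on a log10 scale.

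Spots were named through the platform's gene table, where 32042 spots had 1 gene and 47 had several, and symbols were updated through gene identifiers, which the GRCm38.p6 gene table held for 31906 spots. Between 43689 and 43778 spots had a value on each array. Spots with 1 gene and a value on all 6 arrays (31866) were averaged into 19019 genes. The 34 genes had 67 spots, all with values on all arrays. Each gene was fitted with limma 3.58.1 (lmFit and eBayes, R 4.3.3) as a mean plus a dye term, with 4 residual degrees of freedom and Benjamini-Hochberg adjustment over all genes at 0.05, and likewise each of 43530 spots. The number of arrays limits the precision. The procedure was tested on simulated data.

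Members, gene lists and the genes named were chosen with earlier results of these data known. All members are named, and of each other lipid list up to 4 genes past the threshold with the largest mean log2 ratio. Listed genes without a measured spot were not analysed here. Alternatives were other normalizations, fits without the dye term, with array weights or with each orientation alone, other spot summaries, and leaving out each array. Promoter windows are RefSeq's on GRCm38.p6.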

Additional observations from a re-analysis of the deposited data

Results flagged for a closer look

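For 51 genes (the 34 members, the named genes of other lipid lists and Rest), the highest and the lowest array were set against the others by Dixon's gap over range, for which chance marks about 1 in 20 groups. A single array stood apart for 7 genes, on array 1 for 6 of them and on array 4 for 1. On array 1, Elovl5 lay at -0.73 (gap over range 0.821), Elovl1 at -0.32 (0.757), Me1 at -0.31 (0.735) and Scap at -0.29 (0.775). Acadm lay at -0.88 (0.721) and Hadhb at 0.42 (0.827) on the same array, and in all 6 genes array 1 was the lowest. Acaca lay at 0.0296 on array 4 (0.649), with a whole range from -0.04 to 0.03. Without array 1, Elovl1, Me1 and Scap passed the test as higher, and Elovl5 remained lower. Over all genes 13.7% were higher and 12.2% were lower without that array. These genes were flagged for a low array 1, so leaving it out had to raise their means and is no support. Elovl1, Me1 and Scap did not pass with any other single array left out.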

How the results depend on the processing

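The 10 sterol genes called lower had negative means under every setting run. Of these genes, 9 were below 0 on all 6 arrays, so leaving out arrays could not have turned their signs. Under the alternatives that kept all 6 arrays, at least 9 of the 10 genes passed the test. With the 3 Cy5 arrays alone, 0 sterol genes, 0 SREBP control genes, 0 fatty acid genes and 0 genes of each other lipid list passed, as did 9 of all genes (9 lower, 0 higher). Fatty acid and spot counts in these paragraphs include Mid1ip1, whose fall chose the group. Where only 1 fatty acid gene is counted as lower, that gene is Mid1ip1, and no other fatty acid gene was lower. Array weights gave 4728 changed genes, 2389 of them higher, against 2852 and 1119, and the Cy3 arrays alone 2043 higher. Higher fatty acid genes then numbered 5 with array weights, and higher SREBP control genes 2 with array weights, 2 with Cy3 alone and 1 after quantile normalization. The first spot of each gene gave 1 lower and 1 higher fatty acid gene, 0 lower SREBP control genes and 1 higher sterol gene, and it turned Srebf2 to 0.0473. Other fatty acid genes changed numbered 5 after scaling, 9 after quantile normalization, 11 with array weights and 11 with Cy3 alone. SREBP cleavage genes numbered 1 without the dye term and 1 with the median spot. Glycerolipid genes numbered 2 with the first spot and 8 with array weights, and oxidation genes 7 with array weights and 7 with Cy3 alone.

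Leaving out each array gave 1116 to 4921 changed genes (329 to 2603 higher, 787 to 2318 lower). It gave 6 to 11 lower and 0 to 0 higher sterol genes, 1 to 3 lower and 1 to 5 higher fatty acid genes, and 1 to 3 lower and 0 to 2 higher SREBP control genes. Changed genes ranged from 5 to 9 for other sterol, 2 to 10 for other fatty acid, 0 to 3 for SREBP cleavage, 0 to 7 for glycerolipid and 2 to 7 for oxidation genes. Member spots, an alternative chosen after seeing the data, ranged from 12 to 28 lower and 1 to 8 higher. For single named genes, 689 values kept their side of the threshold, 104 lost the call, 22 gained it and 1 value of a called gene reversed. The 689 include changes of sign in genes called under neither setting, such as Scd1, which was at -0.0414 without array 1. Mid1ip1 was judged by whether its mean moved by less than its SD, not by the threshold. Fewer arrays leave fewer degrees of freedom, and why the counts changed was not tested. No paired analysis was possible because each array already sets both samples against each other and there is 1 group.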
